A study of Mus musculus with 4 samples.

Results

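Cytoplasmic poly(A)-binding proteins are described here through the transcripts of 2 genes, Pabpc1 and Pabpc4, in a map of RNA bound by MOV10 in N2A cells, a mouse neuroblastoma line. Every peak whose midpoint lay in the annotated GRCm38 span of either gene was taken, which gave 69 of the 12236 peaks of the deposited list, 60 in Pabpc1 and 9 in Pabpc4. The map was made by eCLIP, which fixes proteins to the RNA they touch with ultraviolet light and sequences the fragments recovered with an antibody beside an input library. The series held 4 libraries, 2 immunoprecipitates made with an antibody to the RNA helicase MOV10 and 2 inputs, all from cells kept in serum-supplemented medium with no treatment or genetic change named in the labels. The list combined both replicates, so each peak carried a single −log10 p and a single enrichment (log2 fold, immunoprecipitate against input), both computed by the authors. The spread between replicates, the depth and the abundance of each transcript in the input were therefore not known, and the values below are a description of this list with no test between groups.

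Cytoplasmic poly(A)-binding proteins coat the poly(A) tail of mRNAs through their RNA recognition motifs. They contact eIF4G at the cap to promote translation, and their C-terminal domain recruits partners that share a short peptide motif, among them GW182 proteins of microRNA silencing, deadenylase adaptors and translation regulators. PABPC1 is the major form in most cells and limits its own synthesis through an A-rich stretch in the leader of its mRNA. PABPC4 is a related protein first described as an inducible form in activated T cells. MOV10 associates with Argonaute proteins and acts on mRNAs that are also targets of silencing.

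MOV10 peaks in Pabpc1 were many, strong and spread over most of the gene, whereas those in Pabpc4 were fewer and weak. The Pabpc4 peaks formed a group near the 5′ end, with 3 single peaks in the part nearer to the 3′ end. Counted singly, 6 of the 9 Pabpc4 peaks were nearer to its 5′ end, but 5 of these touch, and after merging 2 of its 5 intervals were. The median log2 fold enrichment was 4.14 in Pabpc1 (17.6-fold) and 3.16 in Pabpc4 (8.93-fold), beside 3.71 (13.1-fold) over the 11188 peaks that lay in exactly 1 coding gene. The ranges met only at the low end. They ran from 3.08 to 5.23 in Pabpc1 and from 3.02 to 3.58 in Pabpc4, and 52 of the 60 Pabpc1 peaks lay above the strongest peak of Pabpc4. By −log10 p the genes did not overlap, with 8.84 to 72.8 in Pabpc1 and 3.04 to 8.52 in Pabpc4. Of the Pabpc1 peaks, 34 reached a log2 fold enrichment of 4, a share of 56.7%, where 33.7% of all peaks in coding genes did. A −log10 p of 20 was reached by 42 of the 60, and by 20.4% of all peaks in coding genes. In Pabpc4 0 of 9 peaks reached a log2 fold enrichment of 4, and its strongest peak lay below 4 as in 57.5% of the coding genes with a peak.

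Pabpc1 (chr15:36595658-36609581) was taken to run on the minus strand, since its direction was read from the strand of its 60 peaks, which was the same for all. Peaks were assigned to 7.7% of all coding genes, and 21.9% of the genes so marked held at least 10 peaks. With 60, Pabpc1 ranked 6 of 1686, a rank that 2 genes shared, and it ranked 1 among the 233 genes with a peak and a span of 10 to 20 kb, of which 16.7% held at least 10 peaks. Per length it held 4.31 peaks per kb of span, the highest value of all 1686 genes, against a median of 0.0826. Next came the hnRNP gene Hnrnpa0 with 4.11. This rank rests in part on how finely the list divides bound stretches. Merging peaks that touch left 19 separate intervals in Pabpc1, which gave 1.36 intervals per kb and rank 10, and the 1781 nt they cover made up 12.8% of the span and rank 17. Its strongest peak ranked 104 and its median log2 fold enrichment 121 among the same genes. By number of merged intervals it ranked 30, a rank that 6 genes shared, and by nt covered 60. By its highest −log10 p it ranked 19 and by its median −log10 p 41. Pabpc1 thus ranked higher by singly counted peaks than by log2 fold enrichment.

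**Figure D1:**
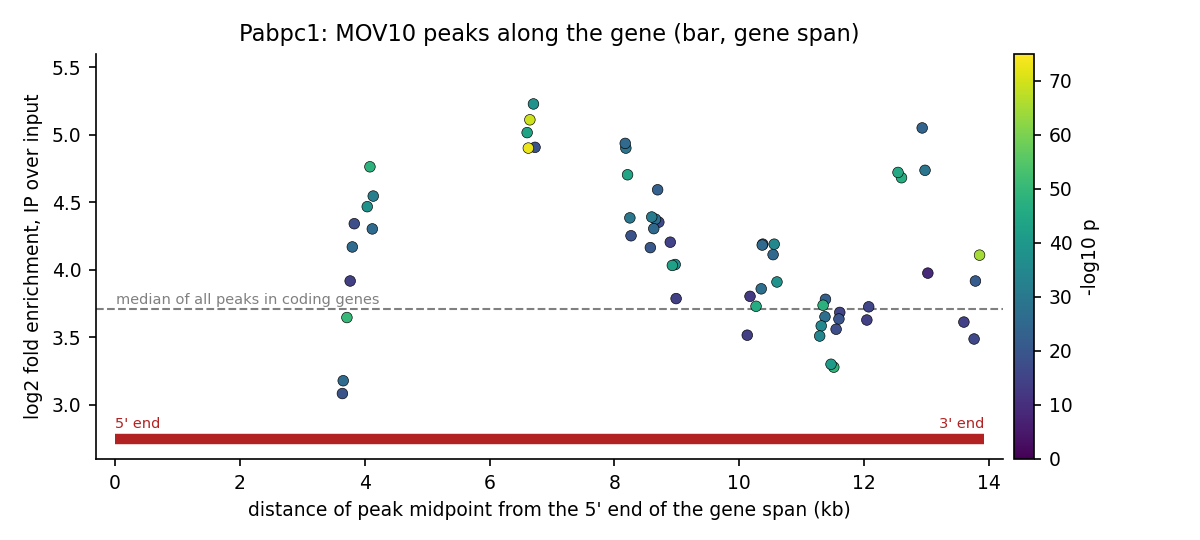
Each point is 1 of the 60 peaks of Pabpc1, at the distance of its midpoint from the 5′ end (kb) and its log2 fold enrichment, coloured by −log10 p, and the dashed line is the median of all peaks in coding genes, 3.71. The 5 peaks near the middle of the gene lie between 4.90 and 5.23, and the 30 peaks of the 3′ group have a median of 3.76.

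The peaks of Pabpc1 fell into 4 groups separated by gaps of over 1 kb. The 3′ group covered chr15:36595680-36599477 and held 30 peaks in 11 intervals, 77.5 to 3796.5 nt from the 3′ end. The second group, chr15:36600593-36601409, held 15 peaks in 3 intervals, and the third, chr15:36602846-36602985, held 5 in 2. The fourth, chr15:36605442-36605937, held 10 in 3, and its farthest peak lay 10278 nt from the 3′ end and 3645 nt from the 5′ end. Gaps of 1115, 1436 and 2456 nt without a peak lay between them, in that order. The part of the gene before it, where the leader of the mRNA begins, had no listed peak. Since the list starts just above 3 on both scales, this does not show that it was unbound. Exons and introns were not given in the annotation used here, so the groups were not assigned to parts of the transcript.

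Strength was highest in the middle of Pabpc1 and not at its 3′ end. The median log2 fold enrichment was 3.76 in the 3′ group, 4.35 in the second, 5.02 in the third and 4.24 in the fourth. Of the 30 peaks in the 3′ group 9 reached 4, and of the 30 in the other groups 25 did. Split at 5 kb from the 3′ end, 33 peaks within had a median of 3.79 and 27 beyond had 4.39. Among the 144 coding genes of at least 10 kb that held peaks on both sides of that distance, 25.7% had the lower median within it, so this order is the less common one but not rare.

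The third group held the peaks with both the highest enrichment and the highest significance of the gene. The strongest peak, chr15:36602860-36602895, was enriched by 5.23 on the log2 scale (37.5-fold) with a −log10 p of 38.0, and the most significant, chr15:36602948-36602971, had 4.90 and 72.8. Between them lay a peak of 5.11 at chr15:36602923-36602947 with a −log10 p of 69.3. All 5 peaks of this 140 nt stretch exceeded 4.9, and 3 of the 4 peaks of Pabpc1 above 5 were among them. Over all peaks in coding genes 5.93% reached 5.

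The remaining peak above 5 lay close to the 3′ end. It was the edge of an interval at chr15:36596563-36596655 that stood at 5.05 over only 3 nt, 996 nt from the end, beside an 88 nt peak of 4.74. An adjacent interval at chr15:36596964-36597075 held peaks of 4.68 and 4.72 with −log10 p of 46.6 and 45.3. The peak nearest to the 3′ end, chr15:36595680-36595791, was weaker at 4.11 but had a −log10 p of 64.9. Enrichment was lowest within the 3′ group at chr15:36598026-36598127, between 3.28 and 3.56, although one of its peaks had a −log10 p of 49.0.

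In the second group the strongest values of the 3 intervals were ordered by distance from the 3′ end. At chr15:36600593-36600688 the peaks reached 4.21, at chr15:36600870-36601007 they reached 4.59 and at chr15:36601315-36601409 they reached 4.94. Of its 15 peaks 14 were at 4 or above. In the fourth group the order was the opposite. Its interval nearest to the 3′ end, chr15:36605442-36605557, reached 4.76, chr15:36605744-36605806 reached 4.34 and chr15:36605808-36605937, separated from it by a single base, held peaks of 3.92, 3.65, 3.18 and 3.08, the last being the weakest of the gene. The last 2 larger intervals of the 3′ group, chr15:36598952-36599042 and chr15:36599205-36599477, both reached 4.19. The second of these, with 6 peaks over 273 nt, was the longest interval of Pabpc1, and the median interval was 95 nt.

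Very short peaks were more frequent in Pabpc1 than in the list as a whole. Peaks of at most 5 nt made up 0.652% of all peaks in coding genes, 73 in total over 38 genes, and 16 of these lay in Pabpc1, 26.7% of its peaks. Next came the tweety family gene Ttyh3 with 7. All 16 lay at the edge of an interval or made it up alone, and they marked 12 of the 19 intervals. There were 8 of 2 nt, 7 of 3 nt and 1 of 5 nt. Their median log2 fold enrichment of 4.18 was close to the 4.08 of the 44 longer peaks, with a lower median −log10 p of 19.2 against 30.4. Without them Pabpc1 held 3.16 peaks per kb and ranked 5. The number of reads behind these edges was not known.

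Pabpc4 (chr4:123282303-123298925) had all 9 of its peaks on the plus strand, from which its direction was read. The RefSeq promoter table also gives the plus strand for it. The span is close in length to that of Pabpc1, 16.6 kb against 13.9 kb, and it held 0.541 peaks per kb of span. This density ranked 162 of 1686, against a median of 0.0826. By number of peaks Pabpc4 ranked 370 of 1686, a rank that 39 genes shared, where the median gene held 3. By its strongest peak it ranked 1095 and by its median log2 fold enrichment 1489. Pabpc4 thus held more peaks than most of these genes, but weaker ones. All 9 peaks lay below the median of all peaks in coding genes, and 4 of 9 had a −log10 p of at least 5, where 84.4% of all such peaks did.

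**Figure D2:**
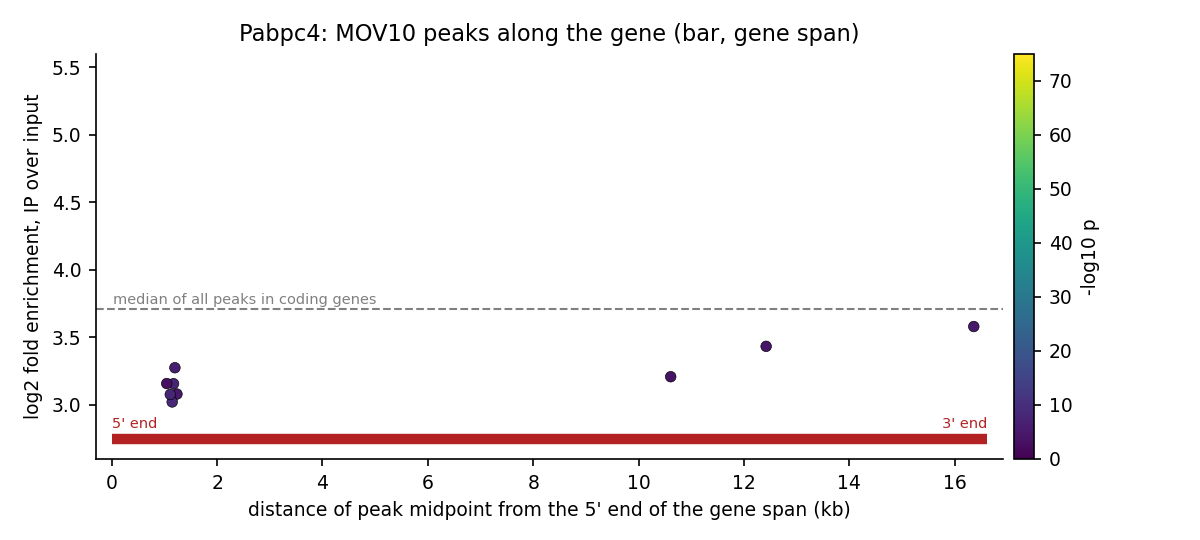
Each point is 1 of the 9 peaks of Pabpc4, plotted with the same axes and colours as for Pabpc1. A group of 6 lies 1043 to 1236.5 nt from the 5′ end with values between 3.02 and 3.28, and the 3 peaks toward the 3′ end lie between 3.21 and 3.58.

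The 5′ group of Pabpc4 held 6 of its 9 peaks. An isolated peak at chr4:123283334-123283358 stood at 3.16 with a −log10 p of 3.04, and 5 touching peaks followed at chr4:123283391-123283563. From 5′ to 3′ the touching peaks had log2 fold enrichments of 3.08, 3.02, 3.16, 3.28 and 3.08 and −log10 p of 8.11, 8.52, 7.38, 6.20 and 4.92. They were the most significant of the gene although not the strongest. A majority of peaks nearer to the 5′ than to the 3′ end was found in 2.14% of the coding genes with a peak, and a peak within 2 kb of the 5′ end that was also nearer to it in 1.07%. For Pabpc4 the majority depends on counting touching peaks singly. With them merged, 2 of its 5 intervals and 198 of the 595 nt covered lay in the 5′ group, and the other intervals were nearer to the 3′ end.

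Further along Pabpc4 lay 3 single peaks, the strongest of them nearest to the 3′ end. They were at chr4:123292867-123292960 with 3.21, at chr4:123294644-123294807 with 3.43 and at chr4:123298598-123298736 with 3.58, the last 258 nt from the 3′ end. Their −log10 p were 3.76, 4.29 and 4.71. A 9303 nt gap without a peak separated them from the 5′ group. The small nucleolar RNA genes Gm25788 and Gm22154 lie inside Pabpc4, and 0 peaks overlapped them. The nearest peak was 192 nt from Gm22154.

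The start of Pabpc4 is shown for its A-rich sequence. The stretch given below lies before the start site and 458 nt from the nearest peak, and a relation between it and the peaks was not tested. In the RefSeq table of promoters (GRCm38.p6), which covers 250 bases before to 50 after a start site, the Pabpc4 window was chr4:123282661-123282960 on the plus strand and lay inside the annotated span, 374 nt before the nearest peak. Its start site lies 608 nt inside the annotated span. The 30 bases before the start site that held most A, 23 of 30, are given with A in capitals, at chr4:123282847-123282876.
Pabpc4: AAAAAAgAAAAAgcttAAAAAAAAcAcAAA
A run of 12 A (AAAAAAAAAAAA, also counted within longer runs) began 19 bases before the start site. It was present on the gene strand in 493 of the 32851 windows of the table, and 3.24% held it on either strand. No peak covered the window, but its 250 bases before the start site need not be part of the RNA, so this absence says little. The first peak of Pabpc4 began 423 nt after the start site and the last of the 5′ group ended 652 nt after it. The table matched 1 of the 2 genes.

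Relative to other transcripts, both genes had most of their peaks away from the far 3′ part of the gene. With each span divided into 10 equal bins, 82.7% of all peaks in coding genes lay in the last bin, against 9 of 60 in Pabpc1 and 1 of 9 in Pabpc4. Within 5 kb of the 3′ end lay 87.4% of all peaks in coding genes, 33 of 60 in Pabpc1 and 2 of 9 in Pabpc4. Both spans are short, so 5 kb takes in a larger part of them than of most genes, whose median span was 43399 nt. Conversely, their bins are shorter in nt, so a peak at the same distance from the 3′ end can fall outside the last bin. Among the 233 coding genes of 10 to 20 kb with a peak, the median over genes of their median distance from the 3′ end was 819.75 nt. The median distance of singly counted peaks was 4366 nt in Pabpc1 and 15424 nt in Pabpc4. From the first to the last peak, peaks reached over 73.3% of the span of Pabpc1 and 92.2% of that of Pabpc4. Only 1.3% of the coding genes with a peak reached over at least 70% of their span, but these genes include those with a single peak, which cannot. For Pabpc4 the reach rests on its single peaks toward the 3′ end, with −log10 p of 3.76, 4.29 and 4.71. At a −log10 p of at least 5 only touching peaks of its 5′ group remained.

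**Figure D3:**
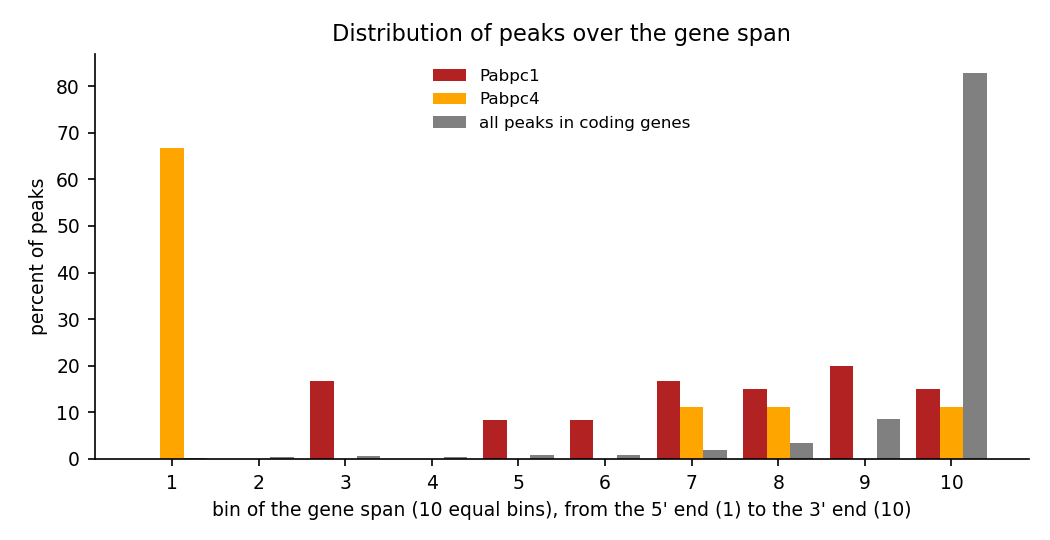
Bars give the percent of peaks in each of 10 equal bins of the gene span, from the 5′ end (1) to the 3′ end (10), for the 60 peaks of Pabpc1, the 9 peaks of Pabpc4 and all 11188 peaks in coding genes. Pabpc1 peaks are spread over 7 bins with at most 12 of 60 in one, Pabpc4 has 66.7% of its singly counted peaks in the first, and all coding genes together have 82.7% in the last.

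The genes with the most similar distribution over these bins were sought among the 368 others with at least 10 peaks, by the sum over bins of the smaller of both shares. Trp53inp2, a p53-inducible gene of autophagy, and Icmt, the methyltransferase of isoprenylated proteins, each shared 66.7% with Pabpc1, and Usp34, a deubiquitinase gene, shared 63.6%. The median over the 368 genes was 15%. These genes held 30, 17 and 14 peaks, fewer than Pabpc1, and their strongest peaks had log2 fold enrichments of 6.06, 5.68 and 3.81. The likeness is one of relative position only. Their spans were 8037, 9913 and 187376 nt, against 13924 nt for Pabpc1. Their median peak distances from the 3′ end were 1412.25, 1332.5 and 39584.5 nt, against 4366 nt. Pabpc4 had fewer than 10 peaks and was not matched in this way.

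Within the poly(A)-binding protein family, 2 of 9 listed genes, Pabpc1 and Pabpc4, had peaks (22.2%), beside 7.7% of all coding genes. Both were the members chosen for this description, so the share does not measure an enrichment of the family. Of the 9 family genes listed, the germ-cell and testis forms Pabpc1l, Pabpc2 and Pabpc6, the further cytoplasmic forms Pabpc4l and Pabpc5, and the nuclear forms Pabpn1 and Pabpn1l held 0 peaks. How far each was expressed in these cells was not known from the list. Reads from near-identical copies of Pabpc1, which has processed pseudogenes and retrogenes, could be shared with it, and how the authors treated such reads is not given in the sources used here. No peak lay within 10 kb outside the span of either gene. The nearest was 161463 nt from Pabpc1, in Ywhaz, which encodes a 14-3-3 protein.

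Genes of proteins that bind poly(A)-binding protein, or that are related to such proteins, were partly represented. Of 23 listed, 9 held a peak assigned to them, beside 7.7% of all coding genes, and expression was not taken into account in either. The median of their strongest peaks, 3.83, was close to the 3.85 of all coding genes with a peak. Larp1, a repressor of terminal oligopyrimidine mRNAs, held 35 peaks up to 5.46, and the GW182 gene Tnrc6b held 36 up to 4.45. The initiation factor gene Eif4b had 28 up to 4.41 and Eif4g2 had 13 up to 4.20. Eif4g2 encodes a relative of eIF4G that lacks the binding site for the cap-binding protein eIF4E. It was listed for that relation, and whether its product binds poly(A)-binding protein was not checked here. Larp4b reached 3.83 with 10 peaks and Larp4 3.47 with 6. Mkrn1, Usp10 and Tnrc6c had 1 peak each, at 3.73, 3.21 and 3.04. No peak was assigned to the others, which include the eIF4G genes Eif4g1 and Eif4g3, the termination factor genes Gspt1 and Gspt2 and the PABP-interacting protein genes Paip1 and Paip2. Paip2b had peaks only where genes overlap.

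**Figure D4:**
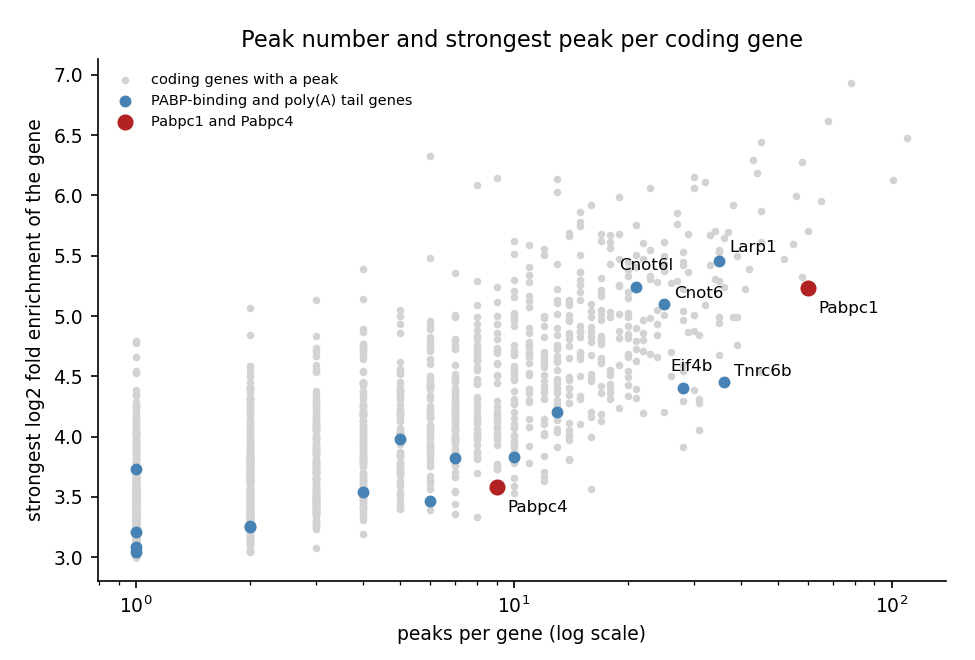
Each point is a coding gene with a peak (1686 in all), at its number of peaks (log scale) and the log2 fold enrichment of its strongest peak. Pabpc1 lies far to the right with 60 peaks at 5.23, Pabpc4 at 9 peaks and 3.58, and 17 genes of the lists on PABP-binding proteins and on the poly(A) tail are in blue.

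Of 22 genes listed under synthesis, removal or regulation of the poly(A) tail, 8 held peaks, beside 7.7% of all coding genes. Expression was not taken into account in either share. The median of the strongest log2 fold enrichments of the 8 was 3.68, beside 3.85 for all coding genes with a peak. The deadenylase genes Cnot6l (21 peaks, up to 5.24) and Cnot6 (25 peaks, up to 5.10) led and were the only ones to reach 4. The catalytic subunit genes Cnot7 and Cnot8 had 5 peaks up to 3.98 and 1 at 3.08. On the side of synthesis, the poly(A) polymerase gene Papola had 7 peaks up to 3.82 and the non-canonical polymerase gene Tent4a 4 up to 3.54. Noct and Cpeb4, the latter a cytoplasmic polyadenylation element binding protein gene, had 2 each, up to 3.25 and 3.26. No other listed gene of this group had a peak, the PAN2-PAN3 deadenylase genes included. In the 3 lists together 19 of 53 genes had a peak, where 1686 of all 21900 coding genes (7.7%) did. The 19 include Pabpc1 and Pabpc4, and the lists were chosen with earlier results of these data known. Expression was not taken into account either, so these shares do not measure an enrichment of the lists. Counted singly, Pabpc1 had the most peaks of the 19, but with touching peaks merged Tnrc6b had 25 intervals and Pabpc1 19.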

How the data were processed

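The authors deposited 1 peak list for the series, without a header, from 2 MOV10 immunoprecipitates and 2 inputs. Its columns were taken to hold, after the positions, the −log10 p-value and then the log2 enrichment that the authors deposited for each peak. This was inferred from the values, which start just above 3, and from the usual order of eCLIP peak columns. Were it wrong, statements on strength would change, but not those on position. The submitters' processing notes name mm10 and GRCm38.p6. The aligner, the peak caller, its thresholds and how replicates were combined were not given in the sources used here. Labels do not say whether replicates were separate cultures.

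Starts were converted to count from 1. Peaks were assigned by midpoint to RefSeq GRCm38.p6 gene spans (pandas 2.3.3, Python 3.11.15), and gene ranks used peaks in exactly 1 coding gene. Gene direction came from the strand of the peaks. Distances run from the midpoint to either end of the span. Assignment, distances and merging were tested on simulated peaks. No test between samples could be made. The members, lists and measures were chosen with earlier results of these data known. Named genes were the members, the listed genes with a peak and the 3 with the most similar distribution, and others were named after their values were seen. Alternatives changed the assignment, strength, significance and length limits, merging and window.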

Additional observations from a re-analysis of the deposited data

How the results depend on the processing

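Of 32 alternative settings, 18 left the result within its stated limit (1.5 times for counts, 0.1 for medians, the exact 95% binomial interval for shares). For the 9 peaks of Pabpc4 that interval is wide and takes in shares of 40.0% and 50.9% beside 22.2%. It also counts touching peaks as separate draws. The 18 include such cases and are not a measure of stability. Pabpc1 kept 60 peaks by any overlap of 1 nt and at a −log10 p of at least 5. It held 34 peaks with an enrichment (log2 fold) of at least 4, 34 of at least 20 nt, 19 after touching peaks were merged and 15 after those up to 50 nt apart were. Pabpc4 held 0, 9, 5 and 4 in that order, and 4 at a −log10 p of at least 5. The Pabpc1 median stayed between 4.11 and 4.19, also at a −log10 p of at least 20, a limit chosen after seeing the data. The Pabpc4 median rose to 3.28 with touching peaks merged and to 3.43 weighted by length. The share of Pabpc1 peaks within 5 kb of the 3′ end, 55.0%, was 32.4% among peaks of at least 4, and 18.3% lay within 2 kb. For Pabpc4 it went from 22.2% to 0% at a −log10 p of at least 5, to 40.0% with touching peaks merged and to 50.9% by merged length, and had no value at an enrichment of at least 4. Of 19 listed genes with a peak, 7 had one of at least 4, while 57.5% of all coding genes with a peak had none.

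Leaving out a replicate was not possible without values per library. No paired analysis was possible because the list has no value per library. The alternatives on exons were not run, since no exons were used here.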
